A study of Mus musculus with 2 samples.

Results

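Uterine natural killer (NK) cells were picked out of droplet single-cell RNA libraries made from the whole uterus of mice. Their barcodes were selected on 5 genes: at least 2 unique molecular identifiers (UMIs, 1 per captured transcript) summed over Klre1, Klra4, Klra7, Ncr1 and Prf1. They also held no UMI of Cd3e, Cd3d or Cd3g, at most 2 UMIs summed over C1qa, C1qb and C1qc, and no UMI of Pdgfra or Epcam. The rule found 346 of 7076 filtered cells, 119 from the control library and 227 from the one labelled cKO. A filtered cell had 1000 UMIs and 500 genes or more, and mitochondrial genes held no more than 20% of its UMIs.

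The series holds 2 libraries, each made from the pooled uteri of 3 female C57BL/6J mice at 6 months of age. The control library came from Prickle1 f/f mice, so it carries the floxed alleles too, and the cKO library from Prickle1 f/f MiC mice, in which Prickle1, a planar cell polarity gene, was to be lost from the myometrium. The myometrium is named in the study's title. What MiC stands for is not in the labels, which enter both libraries as wild-type under genotype. With 1 pool a group there is no replicate, so no test was possible, and intervals are 95% and cover counting error only. Over all filtered cells Prickle1 had 96 UMIs in the control library (2.56 per 1000000 UMIs) and 265 in the cKO library (9.03). That sum covers every cell type, while the loss was meant for the myometrium. The libraries also differed in make-up, with 1847 of 3490 and 3333 of 3586 cells without Epcam, Krt8 or Krt18. The sum therefore cannot test the label. The labels do not give the deleted exons, so a tag read at the 3′ end may lie outside them. In the NK cells Prickle1 had 1 UMI in each library.

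NK cells are innate lymphocytes that kill with perforin and granzymes and secrete chemokines and interferon gamma. In the uterus they are known for growth factors that act on blood vessels and for their place in early pregnancy. Receptors of the killer cell lectin-like families, several encoded together in the NK gene complex, set their activation, and interleukin 15 signalling through the Il2rb chain keeps them alive. Tissue-resident uterine NK cells are commonly told from circulating ones by the integrin Itga1 (CD49a) and by little Itga2 (CD49b).

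The genes of the rule describe the cells and support nothing further. Klre1, a lectin-like receptor of NK cells encoded on chromosome 6 (129577905 to 129585827, plus strand, GRCm38), led with 446 UMIs in the control library and 589 in the cKO library. Those were 548 and 423 UMIs per 1000000 (CPM), and 88.2% and 83.7% of the cells held a UMI. Klra4 (chromosome 6, 130043731 to 130067271, minus strand) and Klra7 (chromosome 6, 130218605 to 130233322, minus strand) encode an activating and an inhibitory receptor of the Ly49 family. Klra4 had 384 and 337 CPM and Klra7 264 and 279 CPM in the control and cKO libraries. Both Ly49 genes were detected together in 42 of 119 and 89 of 227 cells, Klra4 without Klra7 in 25 and 62, and Klra7 without Klra4 in 16 and 41. Ly49 genes are near copies of each other, so reads may be split between them by the counting. Prf1, perforin (chromosome 10, 61297833 to 61304680, plus strand), had 211 and 210 CPM. Ncr1, the receptor NKp46 (chromosome 7, 4337724 to 4345164, plus strand), was sparse, with 29 and 24 UMIs, in 19 of 119 and 12 of 227 cells.

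The rule's edge was soft. Cells just inside it, with exactly 2 marker UMIs, numbered 14 and 27, and Il2rb was detected in 7 and 21 of them. Just outside, 25 and 59 cells met every other condition with 1 marker UMI, and Il2rb was detected in 10 and 29. Cd3 UMIs kept out 24 of 162 and 36 of 293 cells with at least 2 marker UMIs, and Pdgfra or Epcam UMIs 20 and 35. Of 6 barcodes that occur in both libraries among filtered cells, 1 is a member.

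The label was checked on genes the rule did not use. Il2rb was detected in 106 of 119 and 212 of 227 members. As a background for free RNA, Il2rb was detected in 3.82% of 550 and 5.66% of 971 cells with at least 2 Pdgfra UMIs. Median depth was 5925 and 4336 UMIs a member, and 14864 and 13072 UMIs a Pdgfra cell. Eomes, the T-box factor of conventional NK cells, was detected in 62.2% and 63.9% of members and in 0.364% and 1.03% of Pdgfra cells. Trac, the constant gene of the T cell receptor alpha chain, stood at 12.3 and 16.5 CPM against 184 and 117 CPM in Cd3 cells, the cells with at least 2 Cd3 UMIs under the same other limits. Transcripts of Trbc1, the T cell receptor beta constant gene, were present in 71.4% and 79.3% of members.

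A minority of barcodes carried genes of a second cell type. These 15 control and 28 cKO members (12.6% and 12.3%) had at least 15 UMIs on 1 of 7 marker lists of other lineages. Lists of T cells, other innate lymphoid cells, and macrophages or monocytes were not among the 7. At least 15 UMIs of the macrophage or monocyte list, which includes Ccr2, were held by 20 and 23 members. For the T cell list, which includes Trbc1, it was 5 and 6 members. Dendritic genes were the most common, in 13 of the 15 and 24 of the 28. Il2rb was detected in 3 of the 15 and 14 of the 28, against 103 of the other 104 and 198 of the other 199. The dendritic list, 12 genes led by Cd74 and H2-Aa, summed to 3664 and 3198 CPM over all members and to 51.5 and 36.1 CPM without those barcodes. Flt3, Xcr1 and Ccl22 were then at 0 in both libraries. The deepest cKO member alone held 138634 UMIs, 9.95% of all member UMIs of that library. It had 316 UMIs of Prox1 and 184 of Lyve1, both markers of lymphatic endothelium, and none of Il2rb or Nkg7. Another cKO member held 1248 UMIs of erythroid and platelet genes. Values are therefore given for all members, and for part of the genes and lists again without the second-lineage barcodes. Elsewhere values of all members stand alone, and they need not hold without those barcodes. Leaving those out keeps 104 control and 199 cKO cells, called the single-lineage members, a name that refers to the 7 lists only. That step was chosen after the data were seen. It was not applied to the Cd3 cells. In those, the erythroid and platelet list summed to 19.3 CPM in the control and 2405 CPM in the cKO library, and the dendritic list to 832 and 1652 CPM.

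**Figure D1:**
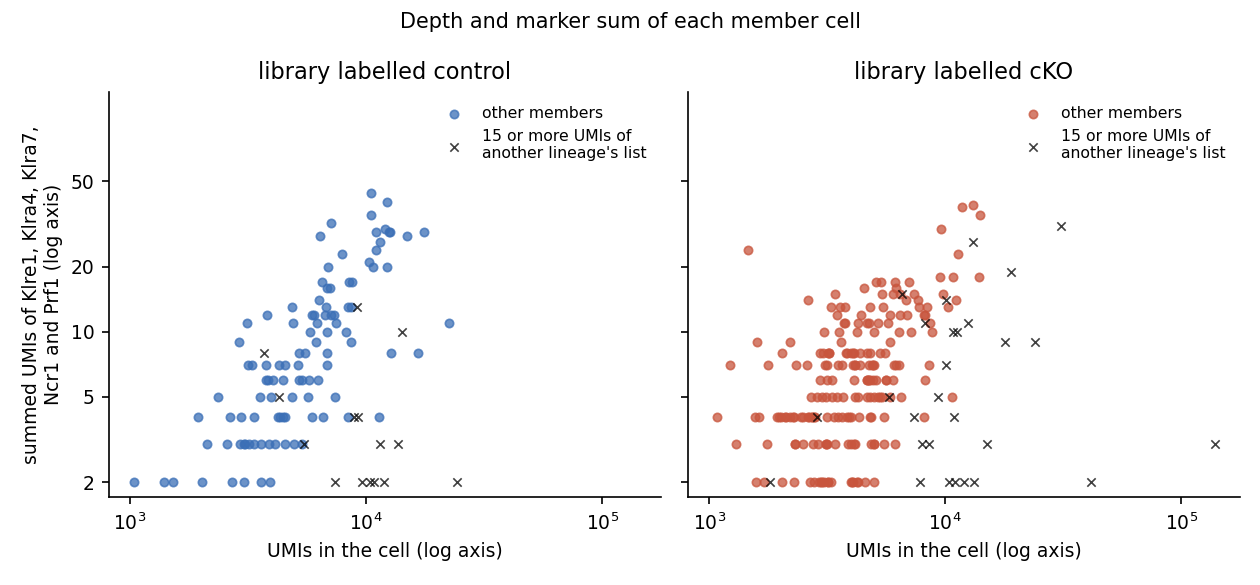
Each point is 1 member cell, with its UMIs on the horizontal log axis and its summed UMIs of the 5 rule genes on the vertical log axis, 1 panel a library. Black crosses, the 15 control and 28 cKO barcodes with at least 15 UMIs of another lineage's list, include the deepest cell of each library, at 24320 and 138634 UMIs.

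The share of NK cells differed with the denominator. They made up 3.41% of filtered cells in the control library (119 of 3490, 2.83 to 4.07, exact binomial) and 6.33% in the cKO library (227 of 3586, 5.56 to 7.18), a log2 ratio, cKO over control, of 0.89 (0.57 to 1.22). Single-lineage members made up 2.98% and 5.55% of filtered cells (log2 ratio 0.90, 0.55 to 1.25). With each cell thinned to 1000 UMIs the shares of all members were 1.72% and 3.18%. Cd3 cells stood at 4.01% and 9.09% of filtered cells, and NK cells were 45.9% and 41.0% of NK and Cd3 cells together (log2 ratio −0.16, −0.49 to 0.17). Thinned, NK cells were 60 of 100 and 114 of 261 such cells (−0.46, −0.92 to 0.02). Among filtered cells with no UMI of the epithelial genes Epcam, Krt8 or Krt18, the shares were 5.68% and 6.60% (0.22, −0.13 to 0.56). Cells without those epithelial genes were 1847 of 3490 in the control library and 3333 of 3586 in the cKO library, and the part of that difference in the share was not tested.

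Levels of single genes were compared as CPM of the summed members in each library, with log2 ratios after adding 10 CPM to both, which understates the difference of low genes. Over the 3703 genes with a mean of at least 50 CPM, 141 (3.81%) were at least 2-fold higher in the cKO library and 115 (3.11%) at least 2-fold lower. The median over these genes was 0.14, and 2322 of them had a ratio above 0 and 1381 below. Among single-lineage members 3679 genes reached the minimum, 72 of them (1.96%) at least 2-fold higher and 88 (2.39%) at least 2-fold lower, and their median was 0.15. With scaling by the median of ratios the counts were 110 higher and 139 lower. These are counts past a fold, not counts of changed genes. The 10 highest ratios over all members were of Ccl21a, Ccl2, Tm4sf1, Prox1, Hba-a1, Hbb-bs, Hba-a2, Angpt2, Cdh5 and Lyve1. At least 75.4% of each gene's cKO UMIs came from 1 cell, and in the single-lineage members none of the 10 had more than 3 UMIs in either library. The 10 lowest were Rsad2, Ifit1, Isg15, Cxcl10, Slfn5, Slpi, Prap1, Phf11b, Ifi203 and Rtp4. Slpi and Prap1 are secreted by epithelia, and Slpi had 1 and 3 UMIs once second-lineage barcodes were left out.

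The clearest difference in the NK cells was in interferon-stimulated genes, the antiviral programme induced by interferon receptors. Of 61 such genes in the files, all 61 had a lower CPM in the cKO library. Over all genes with a UMI in members, 6272 of 14700 did. The list genes are followed here. Of the 61, 42 reached 50 CPM, 37 were at least 2-fold lower and none at least 2-fold higher. The median log2 ratio was −1.77 against 0.14 for all genes. Without second-lineage barcodes 60 of the 61 were lower and 1 had no UMI. There 33 reached the minimum, 24 were at least 2-fold lower, and the median was −1.31.

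Promoters of Isg15, Ifit1 and Rsad2 are shown because the interferon-stimulated response element is the sequence through which the programme is read. The letters searched were GAAANNGAAA and its complement TTTCNNTTTC in the 250 bases before the start site, in RefSeq promoters of GRCm38.p6. Capitals mark the matches, which overlap in Isg15, and each line runs 5′ to 3′ on the gene's strand. The windows are chr4:156200845-156200926 (minus strand) for Isg15, chr19:34640755-34640843 (plus strand) for Ifit1 and chr12:26456533-26456602 (minus strand) for Rsad2.
Isg15: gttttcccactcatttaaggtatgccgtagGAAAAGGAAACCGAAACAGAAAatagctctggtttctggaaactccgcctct
Ifit1: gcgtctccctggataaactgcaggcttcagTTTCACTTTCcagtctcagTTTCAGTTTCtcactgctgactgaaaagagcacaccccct
Rsad2: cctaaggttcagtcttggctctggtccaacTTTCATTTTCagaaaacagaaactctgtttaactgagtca
Of the interferon-stimulated genes at least 2-fold lower, 28 had a RefSeq promoter, and 12 of these held a match (42.9%). So did 19 of 49 genes of the whole list (38.8%) and 936 of 27025 genes in all (3.46%). The list was made of interferon-stimulated genes, so a share above that of all genes cannot speak to the difference between the libraries. Outside that list, 4 of 22 cytotoxic granule genes (18.2%) and 0 of 38 cell cycle genes had a match. None of the 5 rule genes had one in this window, and 5 genes are too few to compare. A match is a run of letters and not a site shown to be bound.

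Isg15, a ubiquitin-like modifier, had 376 UMIs in the control library and 36 in the cKO library. That was 462 against 25.8 CPM over all members, and 106 against 12.0 CPM in single-lineage members. Ifit1, a sensor of foreign RNA, had 186 and 2 UMIs, and 47 and 1 in single-lineage members. Rsad2, the antiviral enzyme viperin, had 261 and 7 UMIs, and 49 and 5 in single-lineage members. In these 3 genes most control UMIs thus lay in second-lineage barcodes, and the cKO library was the lower one with and without them.

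Other members of the list were carried mainly by single-lineage cells. Ms4a4b, a membrane protein of lymphocytes and the most abundant gene of the list, stood at 934 and 265 CPM, a log2 ratio of −1.78 (−1.57 in single-lineage members). Ifi44 had 105 and 18 UMIs, of which 103 and 17 were in single-lineage members. Irf9, a transcription factor of the pathway, was among the 5 list genes within 2-fold, at 88.4 and 73.2 CPM; the others were Slfn2, Nt5c3, Lgals3bp and Oasl1.

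Cells differed widely within the control library. The list took between 0% and 4.70% of a single-lineage cell's UMIs in the control library, with a median of 0.407%, and between 0% and 1.75% in the cKO library, with a median of 0.257%. At least 1% of UMIs was reached by 25 of 104 control cells (interval 16.2% to 33.4%) and by 2 of 199 cKO cells (1.01%, 0.122 to 3.58). The distributions overlapped at the low end, and the cells above 1.75% were all from the control library. In all members 1 control barcode held 1300 UMIs of the list. It was a second-lineage barcode, with 737 UMIs of the dendritic list, 2 of the rule genes and 0 of Il2rb. Second-lineage barcodes held 32.2% of the list's control UMIs.

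The difference was not seen in NK cells alone. In Cd3 cells, which were not cleared of second-lineage barcodes, 29 genes of the list reached the minimum. Of these, 20 were at least 2-fold lower in the cKO library (1.06% of all 3878 genes were), and the median was −1.18. The share of Cd3 cells with at least 1% of UMIs on the list was 17.1% (24 of 140) and 1.53% (5 of 326). In empty droplets, barcodes of at most 100 UMIs that hold free RNA, the list summed to 4588 CPM in the control library and 1150 CPM in the cKO library, against 10329 and 2628 CPM in members. With the empty-droplet profile subtracted from the members' counts the median of the list was −1.77, as without it. The fraction subtracted, 3.95% and 3.87% of member UMIs, was set on fibroblast, epithelial and muscle genes, Cdh1 among them. Second-lineage barcodes held 83.7% and 85% of the fibroblast list's UMIs, so the fraction does not measure free RNA alone. A subtraction of that size could hardly move the median.

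**Figure D2:**
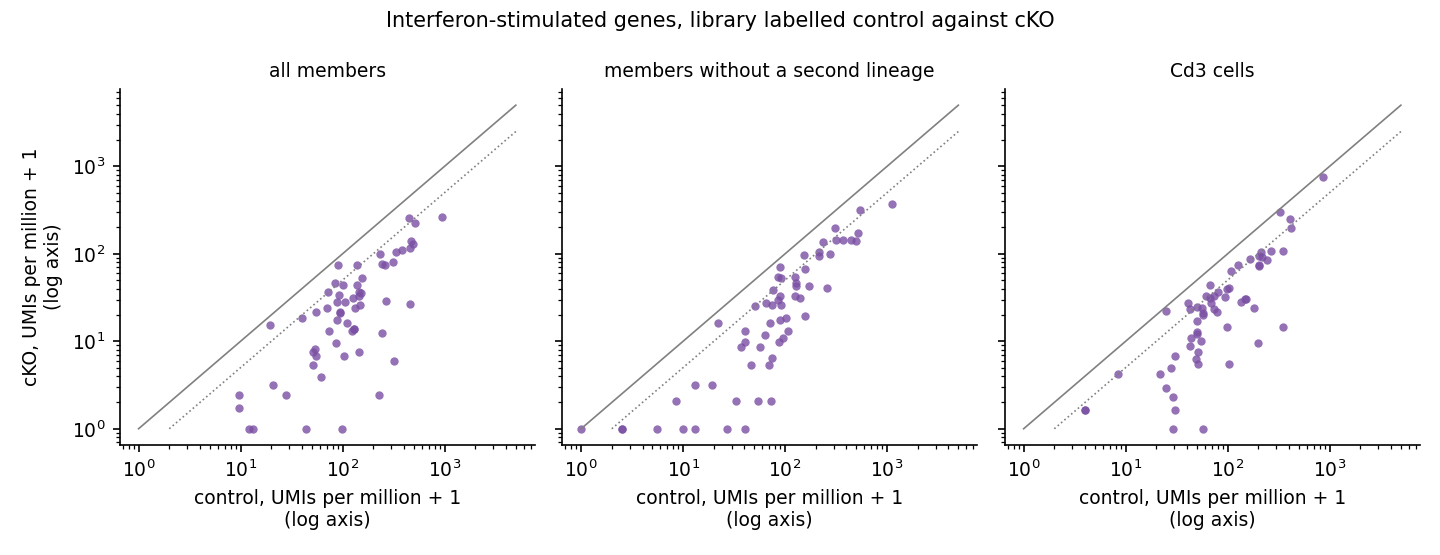
Each point is 1 interferon-stimulated gene, with its level in the control library on the horizontal axis and in the cKO library on the vertical axis, as CPM plus 1 on log axes; the solid line marks equal levels and the dotted line a 2-fold lower cKO level. The points lie below the solid line in all members (61 of 61) and in single-lineage members (60, with 1 gene at 0 in both), and the right panel shows the same genes in Cd3 cells.

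Medians of 2 groups related to interferon lay the same way and were smaller. The interferon-inducible GTPases, which attack vacuoles of intracellular microbes, had 8 genes past the minimum, 7 of them at least 2-fold lower, with a median of −1.31, and −0.93 in single-lineage members, where 2 of 8 were at least 2-fold lower. Irgm1 stood at 145 and 40.2 CPM and Gbp4 at 118 and 29.4 CPM, whereas Irgm2 was within 2-fold at 63.8 and 54.6 CPM. Of 17 class I antigen presentation genes, Tap1 (200 and 91.2 CPM), the peptide transporter, Psme2 (233 and 98.4 CPM), a proteasome activator, and H2-T23 (260 and 121 CPM), the ligand of CD94/NKG2A, were at least 2-fold lower. The median of the 17 was −0.53, and 4 had a ratio above 0. In single-lineage members none past the minimum was past 2-fold, and the median was −0.26. There the whole list summed higher in the cKO library, at 13772 CPM in the control and 15374 CPM in the cKO library. The classical class I genes were near level in all members, B2m at 4229 and 4309 CPM and H2-K1 at 3394 and 3717 CPM.

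Cell cycle genes marked a small group of dividing NK cells that was present in the control library. Mki67, the classical proliferation marker, was detected in 15 of 119 control members (12.6%, 7.23 to 19.9) and in 4 of 227 cKO members (1.76%, 0.482 to 4.45). Among single-lineage members it was detected in 12 of 104 (11.5%, 6.11 to 19.3) and in 1 of 199 (0.503%, 0.0127 to 2.77), with 179 UMIs against 1. Thinned to 1000 UMIs a cell, 6 of 119 and 1 of 227 members held Mki67. In Cd3 cells the shares were 2.86% (4 of 140) and 1.53% (5 of 326).

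Individual cells differed at a high share of UMIs, a limit chosen after the data were seen, and not clearly at limits on UMI counts. Of single-lineage members, 7 of 104 control cells spent at least 2% of their UMIs on the 44 cell cycle genes (6.73%, 2.75 to 13.4). Of 199 cKO cells 0 did, with an exact upper limit of 1.84%, or 1.51% where a count of 0 is taken to allow 3. Over all members 7 of 119 and 1 of 227 did, the cKO barcode with a second lineage, 2.19% on the list, 31 UMIs of the rule genes and 19 of Il2rb. The highest control cell reached 3.60% and the highest cKO cell 0.631%, while the medians were 0.140% in the control and 0.167% in the cKO library. The higher control sum thus lay in few cells. Over all members 11 of the 44 genes reached 50 CPM, 4 were at least 2-fold lower, none was at least 2-fold higher, and the median was −0.62. In single-lineage members 12 reached it, 5 were at least 2-fold lower and the median was −0.94.

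Among the lowest were genes of dividing cells. Top2a, which untangles replicated DNA, had 189 and 18 UMIs in single-lineage members, and was detected in 12 of 104 and 13 of 199 of them (log2 ratio of the shares −0.82, −2.07 to 0.44). Pclaf, a partner of the replication clamp, had 94 and 1. Under the minimum, Cenpf, of the kinetochore, had 62 and 1, and Ube2c, which drives mitotic exit, 58 and 0. Genes of replication that resting cells also hold were close, with Pcna at 214 and 251 CPM and Mcm6 at 89.6 and 94.8 CPM over all members. Second-lineage barcodes held 40 of the 41 Mki67 UMIs of the cKO library.

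**Figure D3:**
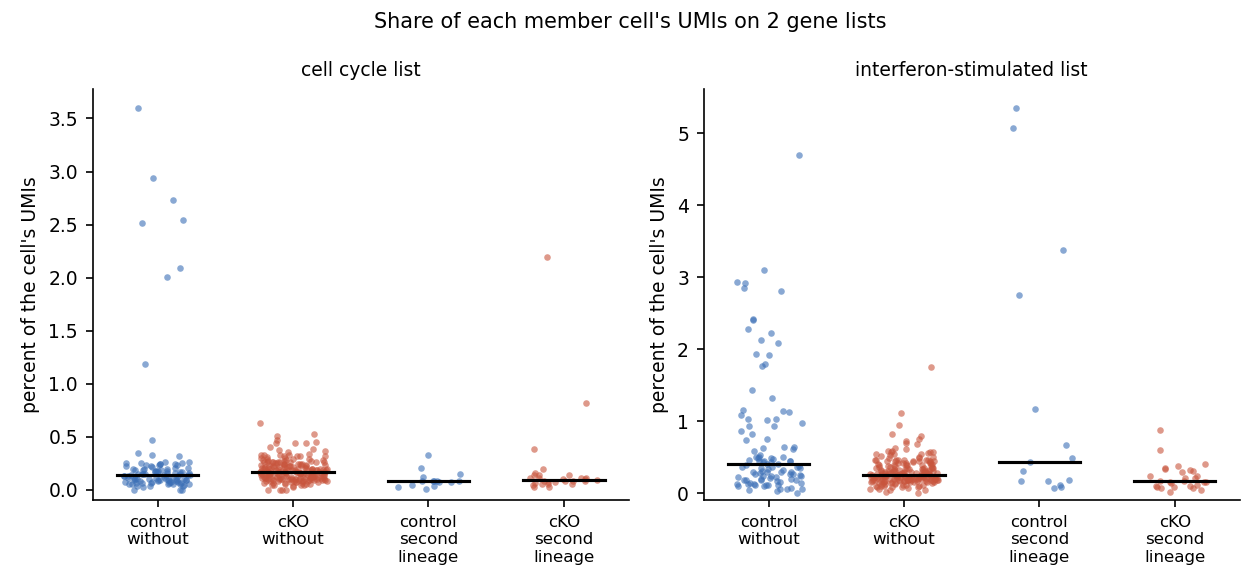
Each point is 1 member cell, with the percent of its UMIs on the cell cycle list (left) and on the interferon-stimulated list (right), by library and by whether the barcode carried a second lineage; black lines are medians. Among cells without a second lineage, 7 control cells and no cKO cell reach 2% on the cell cycle list, and 25 control and 2 cKO cells reach 1% on the interferon-stimulated list.

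Cytotoxic genes differed one by one. Of 24 granule and killing genes, 17 reached the minimum, 4 were at least 2-fold lower, none was at least 2-fold higher, and the median was −0.12, near that of all genes. The 4 were granzymes encoded together. Gzmc (chromosome 14, 56231441 to 56234656, minus strand) stood at 451 and 94.8 CPM, a log2 ratio of −2.14, and was detected in 29 of 119 and 34 of 227 members and in 0 of 550 and 1 of 971 Pdgfra cells. Gzmb, the main apoptosis-inducing granzyme (chromosome 14, 56258838 to 56262260, minus strand), stood at 696 and 263 CPM, or −1.37, in 27.7% and 25.1% of members. Gzmd and Gzme stood at 125 and 42.4 CPM and at 107 and 41.6 CPM. Gzmf, of the same locus, was detected in 2.52% and 3.96% of cells, at 61.4 and 84.0 CPM, with 47.0% of its cKO UMIs in 1 cell. The granzymes of this locus are near copies, so reads may be split between them.

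Gzma, encoded on chromosome 13 (113093825 to 113100981, minus strand), was within 2-fold at 1057 and 635 CPM, or −0.73. Serpinb9, the inhibitor that shields a killer cell from its own granzyme B, stood at 554 and 974 CPM over all members (0.80) and at 415 and 976 CPM in single-lineage members (1.21). Fasl, the death ligand, stood at 174 and 241 CPM, and Nkg7, a granule membrane protein, at 205 and 132 CPM. Thus Gzmb, Gzmc, Gzmd and Gzme were lower and Serpinb9 was higher in the cKO library.

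Among activating receptors and adaptors, all 11 genes past the minimum had a log2 ratio below 0, beside 1381 of 3703 over all genes. Klrk1 stood at 0.39 when cells were thinned. Of the 11, 2 were at least 2-fold lower, and the median was −0.65. In single-lineage members 14 reached the minimum, 3 were at least 2-fold lower and the median was −0.40. Tyrobp (DAP12), the adaptor of several activating receptors, stood at 519 and 230 CPM, or −1.14, and was detected in 81.5% and 54.6% of members, and in 3.45% and 1.96% of Pdgfra cells. Klra8 (Ly49H), the Ly49 receptor that recognises a cytomegalovirus protein, stood at 178 and 69.6 CPM, or −1.24, and in Cd3 cells at 0 and 4.56 CPM. Klrk1 (NKG2D) stood at 615 and 447 CPM and Fcer1g at 707 and 539 CPM, both within 2-fold. Below the minimum, Klrb1c, the NK1.1 antigen, had 53 and 11 UMIs, in 20.2% and 4.41% of members.

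Inhibitory receptors lay closer together. Of 8 genes past the minimum, Klra9 alone was at least 2-fold lower, at 82.2 and 34.5 CPM; the median was −0.18, and 0.01 in single-lineage members, where no gene was past 2-fold. Klrd1 (CD94), the partner chain of the NKG2 receptors, stood at 455 and 235 CPM, or −0.92. Klrg1, a receptor of mature NK cells, was level at 87.2 and 82.6 CPM, and Klra1 (Ly49A) stood at 66.3 and 90.5 CPM.

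Transcription factors of the lineage were present at like levels. Of 16 past the minimum, 12 had a ratio above 0, beside 2322 of 3703 over all genes. None was at least 2-fold higher, and the median was 0.24. Eomes stood at 254 and 281 CPM (0.14, −0.10 to 0.40). Tbx21 (T-bet), its relative, stood at 49.1 and 84.0 CPM, or 0.67. Irf8, the most abundant of the list and a factor that NK cells use in antiviral responses, stood at 1514 and 2078 CPM, against 125 and 115 CPM in Cd3 cells. Runx3 stood at 977 and 1210 CPM. Ikzf2 (Helios) alone was at least 2-fold lower, at 410 and 174 CPM (−1.19, and −0.98 in single-lineage members).

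**Figure D4:**
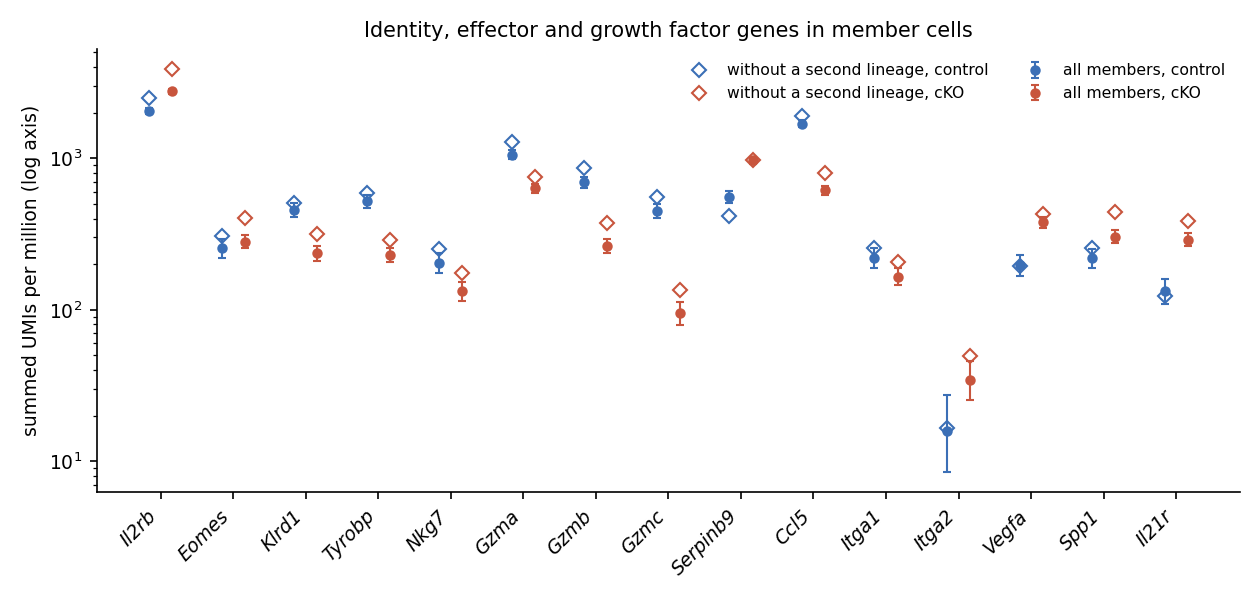
Summed CPM on a log axis for 15 named genes in the control (blue) and cKO (red) libraries; filled circles are all members with exact 95% Poisson intervals and open diamonds are single-lineage members. Gzmb, Gzmc, Tyrobp and Ccl5 are lower and Serpinb9, Vegfa and Il21r higher in the cKO library in both sets, while Eomes lies close.

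Integrins divided the cells in both libraries. Itga1 without Itga2 was detected in 42 of 119 control cells (35.3%, 26.8 to 44.6) and 73 of 227 cKO cells (32.2%, 26.1 to 38.7). Itga2 without Itga1 was detected in 8 (6.72%) and 18 (7.93%), both in 1 and 16, and neither in 68 and 120. Thinned to 1000 UMIs, Itga1 without Itga2 stood at 21 and 32 cells and Itga2 without Itga1 at 4 and 6. The log2 ratio of the share with Itga1 alone was −0.13 (−0.70 to 0.45), and that of the share with both was 3.07 (0.38 to 8.46, from 1 control cell). Thinned, 0 control cells and 1 cKO cell held both. Itga2 is no marker against stroma in this tissue, since 41.6% and 41.5% of Pdgfra cells held a UMI.

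Levels of other genes in these subsets are descriptions, since the cells were picked by a UMI of 1 gene. Among single-lineage members, 38 control and 59 cKO cells held Itga1 alone, and 7 and 18 held Itga2 alone. Cdh1 (E-cadherin) stood at 181 and 169 CPM in Itga1 cells and at 25.4 and 12.5 CPM in Itga2 cells. Gzmc stood at 1147 and 202 CPM in Itga1 cells and at 254 and 12.5 CPM in Itga2 cells. Ccl5 was the reverse, at 1756 and 648 CPM against 5459 and 1873 CPM, and so was Eomes, at 181 and 348 CPM against 355 and 574 CPM. Within each subset Gzmc and Ccl5 were lower in the cKO library, as over all members. In Itga2 cells Gzmc had 10 and 1 UMIs and Cdh1 1 and 1, so those levels rest on few counts.

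Of the tissue residency list, 8 of 18 genes reached the minimum and 2 were at least 2-fold higher, with a median of 0.46. Of the 8, 5 had a ratio above 0 and 3 below, the lowest being that of Cd69 (−0.79). Over all genes 2322 of 3703 lay above 0, a share near that of the list. In single-lineage members 9 reached the minimum, 1 was at least 2-fold higher and 1 at least 2-fold lower, and the median was 0.65. Rgs2, which damps G protein signals, stood at 412 and 925 CPM, or 1.15 (1.33 in single-lineage members). Cd9, a tetraspanin, stood at 152 and 525 CPM, with 40.9% of its cKO UMIs in 1 cell, and at 147 and 238 CPM in single-lineage members. Itga1 itself stood at 220 and 166 CPM. Of the circulating NK list 11 reached the minimum, none was past 2-fold and the median was −0.41. In single-lineage members 9 reached it, none was past 2-fold and the median was −0.50. Second-lineage barcodes held 22.6% of this list's control UMIs and 34.6% of its cKO UMIs. Emb stood at 702 and 431 CPM and Klf2 at 67.5 and 116 CPM. Ly6c2, a surface antigen of mature circulating NK cells, was under the minimum, with 49 UMIs in 5.88% of control cells and 0 in the cKO library.

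Of 22 cytokines and chemokines, 4 reached the minimum and 2 were at least 2-fold lower. Ccl5, which draws T cells and monocytes, was the most abundant of them, at 1697 and 616 CPM, or −1.45, and was detected in 72.3% and 59.9% of members. Ltb (lymphotoxin beta) stood at 169 and 61.0 CPM, or −1.34. Xcl1, which draws cross-presenting dendritic cells, was level at 187 and 170 CPM, and Ifng had 12 and 22 UMIs. Of 18 growth factors attributed to uterine NK cells, 5 reached the minimum and all 5 were above 0, beside 2322 of 3703 over all genes. Vegfa, the endothelial growth factor, stood at 198 and 377 CPM, or 0.90 (1.10 in single-lineage members). Spp1 (osteopontin) stood at 219 and 304 CPM and Tgfb1 at 498 and 672 CPM. The 2 that were at least 2-fold higher, Angpt2 and Gdf15, came from few barcodes and held 0 and 1 UMIs in single-lineage cKO members. Pgf, placental growth factor, had 8 and 83 UMIs, of which 0 and 1 were in single-lineage members. In single-lineage members 3 growth factors reached the minimum, 1 was at least 2-fold higher and the median was 0.75. Higher cKO levels of this list were not seen in NK cells alone. In Cd3 cells 3 genes reached the minimum, 2 were at least 2-fold higher, and the list summed to 387 and 788 CPM. Those Cd3 cells still held second-lineage barcodes, and the part of these in the sums was not tested.

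Cytokine receptors and their signalling genes were level as a group, with 23 past the minimum, 1 at least 2-fold higher, 2 lower and a median of 0.07. Il2rb (chromosome 15, 78479256 to 78495271, minus strand) stood at 2059 and 2760 CPM. Il21r, which potentiates killing, stood at 133 and 290 CPM, or 1.07, and at 124 and 384 CPM in single-lineage members, where it ranked among the 10 highest genes. Il10ra stood at 128 and 51.7 CPM, or −1.16. Il18rap, a chain of the interleukin 18 receptor, stood at 85.9 and 28.0 CPM, or −1.34, in 31.1% and 7.05% of members. The other genes among those 10 highest were Perp, Epm2aip1, Lrrc8d, Btbd11, Irs2, Cebpb, Slc16a10, Hist1h2bc and Rhoq.

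Chemokine receptors, which place NK cells in tissue, had 5 genes past the minimum and none past 2-fold. Ccr2 was level at 880 and 893 CPM. Of 24 adhesion and cytoskeleton genes past the minimum, 3 were at least 2-fold lower and 2 higher. S100a4 stood at 182 and 38.0 CPM, S100a6 at 347 and 155 CPM (−1.11) and Itga4, the alpha 4 integrin, at 441 and 166 CPM (−1.36). Itgav stood at 165 and 414 CPM (1.28, and 1.10 in single-lineage members). Icam1 was 2-fold higher over all members (1.35) but not in single-lineage members (−0.09), with 59.3% of its cKO UMIs in 1 cell.

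Immediate early and dissociation genes, which report handling as well as activation, were also unequal. Of 35 past the minimum, 6 were at least 2-fold higher and 3 lower, with a median of 0.55. In single-lineage members 25 reached the minimum, 5 were at least 2-fold higher, none was at least 2-fold lower and the median was 0.58. Junb stood at 572 and 1282 CPM, with 23.4% of its cKO UMIs in 1 cell, Fosl2 at 428 and 934 CPM and Nr4a2 at 162 and 339 CPM. Tnfaip3 (A20) stood at 651 and 1092 CPM. The 5 hours of enzymatic digestion were the same for both libraries per the labels' protocols, and the part of handling in these values was not tested. Of 6 glucocorticoid and steroid response genes past the minimum, Klf9 and Sgk1 were at least 2-fold higher over all members and none was in single-lineage members. Of 13 glycolysis and hypoxia genes past the minimum 1 was, Ndrg1 at 144 and 387 CPM, with 45.8% of its cKO UMIs in 1 cell. Of 15 planar cell polarity genes 2 reached the minimum and neither was past 2-fold.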

How the data were processed

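Per the file headers, the authors' deposited matrices hold unnormalized UMI counts for 32285 genes and all barcodes, written by Cell Ranger 4; the submitters' processing notes name Cell Ranger 6.1.1 and the build mm10. The libraries hold 45035801 (control) and 34261441 (cKO) UMIs. The member cells hold 814601 and 1392971 UMIs. The members, the 30 gene lists and the rule for named genes were chosen with earlier results of these data known. That rule takes in each list the members of highest level (up to 6) and of highest and lowest ratio (up to 4 each), 10 set genes with the rule genes, and the 10 highest and 10 lowest ratios over all genes; other named genes were chosen after their values were seen.

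Counts were summed over members per library and scaled to CPM, a total of 1000000, with a pseudocount of 10 CPM and a minimum mean of 50 CPM. With 1 library a group no test was run. Intervals are exact Poisson (levels), exact binomial (shares) and exact conditional (ratios, without the pseudocount), at 95%, computed with Python 3.11.15, numpy 2.4.6, scipy 1.17.1 and pandas 2.3.3. A count of 0 was taken to allow 3. Ratios and intervals were checked on simulated Poisson counts, the distribution that the intervals assume. That check holds for the computation only, since UMIs clustered in single cells were not simulated. Doublets were not removed and no caller was run; barcodes with at least 15 UMIs on 1 of 7 other-lineage lists were counted and left out as an alternative. Genome positions come from GENCODE vM21 (GRCm38), matched by identifier, and promoters from RefSeq. Alternatives covered pseudocounts, minimums, scaling, cell limits, thinning, empty-droplet subtraction and the member rule. Leaving out second-lineage barcodes or the deepest cKO member, and the 1% and 2% limits on a cell's UMIs, were chosen after seeing the data.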

Additional observations from a re-analysis of the deposited data

Results flagged for a closer look

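Among the named genes past 50 CPM in both populations, 4 had log2 ratios (cKO over control) of at least 0.5 in size with opposite signs in NK cells and in Cd3 cells. With 1 library a group the difference was not tested, and the Cd3 cells were not cleared of second-lineage barcodes. Serpinb9 stood at 0.80 in NK cells (1.21 in single-lineage members), and in Cd3 cells at 397 CPM in the control library and 242 CPM in the cKO library. Jun stood at −1.12 in NK cells and at 78.8 and 156 CPM in Cd3 cells. In single-lineage members no gene of its list, the immediate early genes, was at least 2-fold lower among those past the minimum. Ccr7 stood at −0.50 in NK cells and at 173 and 254 CPM in Cd3 cells; it had 507 and 608 UMIs in all members and 31 and 22 in single-lineage members, and its ratio in NK cells was 0.32, the same sign as in Cd3 cells, without Klra4 and Klra7 in the marker sum. Hspa1a stood at −1.35 in NK cells and at 44.6 and 139 CPM in Cd3 cells, and held 2 and 4 UMIs in single-lineage members.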

How the results depend on the processing

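With 1 library a group no paired analysis was possible because the design has no replicates. The share of filtered cells (log2 ratio 0.89) stood at −0.16 with NK and Cd3 cells as denominator and at 0.22 without cells holding Epcam, Krt8 or Krt18. The count of genes at least 2-fold higher (141) and lower (115) was 68 and 66 with a pseudocount of 50 CPM, 274 and 188 with a minimum of 20 CPM, 27 and 30 with a minimum of 200 CPM, and 52 and 76 with the mean of single-cell CPM. They were 52 and 97 without Klra4 and Klra7 in the marker sum, 58 and 106 without the deepest 5% of members, 232 and 164 when thinned, 72 and 88 without second-lineage barcodes, 60 and 105 without the deepest cKO member, and 110 and 139 with median of ratios scaling. The interferon-stimulated median (−1.77) was −1.24 when thinned, −1.27 with a pseudocount of 50 CPM and −1.29 with the mean of single-cell CPM. The cell cycle median (−0.62) was −1.08 with a minimum of 20 CPM, −0.35 with one of 200 CPM, −0.39 with the mean of single-cell CPM and −0.44 with a pseudocount of 50 CPM. Of the genes at least 2-fold apart, 4 changed sign. Ier3 stood at −0.12 without Klra4 and Klra7, −0.23 without the deepest 5% and −0.35 thinned. Icam1 stood at −0.23 and −0.35 in the first 2 of these, −0.12 with the mean of single-cell CPM and −0.089 without second-lineage barcodes. Sgk1 stood at −0.030 without the deepest 5% and −0.20 thinned, and Gbp5 at 0.057 thinned. Of genes within 2-fold, 34 changed sign in 87 of the 2769 alternative values of 199 named genes, among them Lamp1 (0.58 to −0.020 without Klra4 and Klra7), Ccr7 (−0.50 to 0.32, same setting) and Socs2 (−0.49 to 0.11 with a marker sum of at least 3). The cause was not tested. Depth limits genes under 50 CPM, where a library's members hold few UMIs.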
